A study of Mus musculus with 352 samples.

Results

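The myosin heavy chains of muscle fibres are the motor proteins of the thick filament, and 5 of their genes were followed here: Myh4, Myh1, Myh2, Myh7 and Myh8. They were chosen by name, as rows of the expression table whose Ensembl gene identifier carries one of these symbols, and all 5 were present among 14413 genes. RNA of tibialis anterior, a fast muscle at the front of the shin, was sequenced in 352 C57BL/6 mice, in 15 groups of 22 to 25 animals. Muscle was taken every 4 h through the day, at 6 zeitgeber times (ZT, counted from lights on), from 3 to 5 animals per group and time.

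All mice called RE-RE, Br-RE, Mu-RE or KO carry Bmal1(stopFL/stopFL), in which a floxed stop cassette blocks the core clock gene Bmal1 (symbol Arntl) in the whole body. KO mice are Cre(-/-). Mu-RE mice carry Hsa-Cre(-/tg), where a skeletal actin promoter drives Cre in muscle fibres but not in the other cells of the muscle. Br-RE mice carry Syt10-Cre(-/tg), which acts in brain, and RE-RE mice carry both transgenes. Wild-type (WT) mice carry none of these alleles, so the WT group does not control for Cre. At 10 to 12 weeks of age, called 10 weeks here, 24 RE-RE, 23 Br-RE, 25 Mu-RE, 23 KO and 23 WT mice ate ad libitum (ALF). At 26 weeks, 23 Mu-RE, 23 KO and 24 WT mice were on time-restricted feeding (TRF), and 24 RE-RE, 22 Br-RE, 24 Mu-RE, 24 KO and 22 WT mice were on ALF. Old mice were wild type and 85 to 116 weeks of age, 24 on TRF and 24 on ALF. Groups given without a feeding schedule were on ALF.

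A muscle fibre is typed by the heavy chain it makes most of, since the chain sets how fast the filament slides and how much ATP it costs. In the mouse Myh4 marks the fastest, glycolytic type 2B fibres, Myh1 the type 2X fibres, Myh2 the fast oxidative type 2A fibres and Myh7 the slow oxidative type 1 fibres, while Myh8 is the perinatal chain, made around birth and normally replaced in adult limb muscle. Exercise, innervation, thyroid hormone and age are known to move fibres along the series from type 1 over 2A and 2X to 2B or back, and tibialis anterior of the mouse is made up mainly of the fast types.

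The fast and perinatal chains lie in a row on one strand of chromosome 11, and Myh7 lies elsewhere. On the plus strand of the GRCm38 build, Myh2 (ENSMUSG00000033196) spans chr11:67171027-67197517, Myh1 (ENSMUSG00000056328) chr11:67200052-67224575, Myh4 (ENSMUSG00000057003) chr11:67238029-67260446 and Myh8 (ENSMUSG00000055775) chr11:67277124-67308634. Myh7 (ENSMUSG00000053093) lies on the minus strand at chr14:54970684-54994626, beside Myh6. The coding sequences run to 5808 to 5829 bases, and over their aligned bases Myh1 is 91.1% identical to Myh2 and 90.2% identical to Myh4. Myh8 is 88.1% identical to Myh4, and Myh7 is 77.4% to 77.9% identical to the other 4 members. So the values of these genes depend on reads from near copies being told apart. A stretch of 60 coding bases from each chain is shown as an example. It was picked, among stretches without gaps, as the one where Myh4, Myh1 and Myh2 differ at the most places. It therefore shows more differences among these chains than most stretches do. Capitals mark the bases that differ from Myh4 at the same place, 19 in Myh1, 16 in Myh2, 14 in Myh8 and 20 in Myh7, and the stretch begins at coding base 3832 of Myh4.
Myh4: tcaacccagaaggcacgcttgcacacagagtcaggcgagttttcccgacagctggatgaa
Myh1: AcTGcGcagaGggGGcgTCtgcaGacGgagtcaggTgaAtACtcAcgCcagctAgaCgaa
Myh2: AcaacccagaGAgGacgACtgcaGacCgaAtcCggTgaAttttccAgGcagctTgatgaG
Myh8: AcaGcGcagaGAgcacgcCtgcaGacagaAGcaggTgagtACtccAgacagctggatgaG
Myh7: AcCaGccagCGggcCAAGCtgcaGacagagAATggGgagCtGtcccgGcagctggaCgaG
Of the stretches of 150 bases, the length of a read, 0.529% in Myh4, 2.61% in Myh1, 2.15% in Myh2, 1.69% in Myh8 and 5.83% in Myh7 occur unchanged in another sarcomeric heavy chain. For Myh7 all 330 such stretches are shared with the cardiac chain Myh6.

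The promoters of the fast chains are alike as well. The 250 bases before the start site are shown for the 4 members of the cluster, from RefSeq on GRCm38.p6, plus strand, because Myh2, Myh1 and Myh4 hold one identical run of 20 bases, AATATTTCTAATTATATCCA, which is the longest that all of them share. Capitals mark that run and the match to a binding motif of the MEF2 factors (muscle transcription factors), TTATTTATAG. RefSeq had an entry for 5 of 5 members. Its starts of Myh1, at 67200102, and Myh4, at 67237812, are not those of the gene spans given above, which come from GENCODE.
Myh2, chr11:67170777-67171026: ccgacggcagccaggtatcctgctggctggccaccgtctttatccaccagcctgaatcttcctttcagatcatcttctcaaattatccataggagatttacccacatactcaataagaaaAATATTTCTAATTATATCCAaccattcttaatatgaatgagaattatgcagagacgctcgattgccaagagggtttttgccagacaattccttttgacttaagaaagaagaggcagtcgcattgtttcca
Myh1, chr11:67199852-67200101: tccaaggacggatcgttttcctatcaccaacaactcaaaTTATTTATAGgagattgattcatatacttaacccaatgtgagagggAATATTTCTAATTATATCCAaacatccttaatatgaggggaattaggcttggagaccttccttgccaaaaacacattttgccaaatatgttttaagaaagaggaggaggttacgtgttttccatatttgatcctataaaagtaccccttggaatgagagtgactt
Myh4, chr11:67237562-67237811: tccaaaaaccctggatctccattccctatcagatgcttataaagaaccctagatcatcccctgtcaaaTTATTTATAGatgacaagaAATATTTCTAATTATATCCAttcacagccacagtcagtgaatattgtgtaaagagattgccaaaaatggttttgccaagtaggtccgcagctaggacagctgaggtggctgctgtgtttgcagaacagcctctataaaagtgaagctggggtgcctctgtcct
Myh8, chr11:67276874-67277123: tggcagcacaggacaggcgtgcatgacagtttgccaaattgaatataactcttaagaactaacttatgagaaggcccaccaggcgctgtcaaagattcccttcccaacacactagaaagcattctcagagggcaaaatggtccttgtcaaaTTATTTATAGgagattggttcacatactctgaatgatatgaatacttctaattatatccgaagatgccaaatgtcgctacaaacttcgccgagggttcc
The run of 20 bases occurred in 3 of 32851 mouse promoters of this length, those of Myh2, Myh1 and Myh4 themselves, counting from 130 to 111, 165 to 146 and 163 to 144 bases before their start sites. Only exact matches were counted, and the promoter of Myh8 shown above holds a close variant of the run, aatacttctaattatatccg. A MEF2 match, sought on both strands, lay 211 to 202 bases before the start of Myh1, 182 to 173 before Myh4 and 99 to 90 before Myh8. It was found in 2.92% of all promoters, and it overlaps a match to the TATA motif (TATAAA, on the other strand) in each of the 3. A TATAAA match near the start site, 32 to 27 bases before Myh1 and 31 to 26 before Myh4, belongs to a motif present in 12.4% of promoters. The E-box of the clock protein BMAL1 with CLOCK, CACGTG, was in none of the promoters of the members and in 6.02% of all.

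The deposited values are log2 FPKM (fragments scaled to exon length and to the total of the library), so levels are given per length. No source used here gives the exon length by which the authors divided. All annotated exons of Myh8 add up to 11772 bases and those of Myh7 to 8616, against 6149 and 6135 bases in their coding transcripts, so levels of this pair set beside other chains, or beside each other, hold only on the deposited scale. Per the labels, libraries averaged 25 M (mega) read pairs, at which 1 FPKM over all annotated exons is about 150 pairs for Myh4, 159 for Myh1, 178 for Myh2, 215 for Myh7 and 294 for Myh8. The depth of each library is unknown, since the values hold no counts. The values of Br-RE and RE-RE libraries had been centred apart from the others, so these 2 genotypes are set only against each other. A total of 16 libraries stood apart, with a median correlation under 0.95 with the rest of their group, and of these 3 each were KO on ALF, KO on TRF and RE-RE on ALF at 26 weeks. The markers of muscle fibres were present in all groups. Arntl, as a level of the whole gene, lay at 8.13 to 13.8 FPKM (median 10.6) in KO and at 1.71 to 35.4 FPKM (median 7.44) in WT mice of 10 weeks, so its level alone does not show the block.

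In every one of the 352 libraries Myh4 was the most abundant chain, Myh1 the next and Myh2 the third. Averaged over all libraries, the levels were 7190 FPKM for Myh4, 1570 FPKM for Myh1, 246 FPKM for Myh2, 0.903 FPKM for Myh7 and 0.732 FPKM for Myh8. The slow chain Myh7 and the perinatal chain Myh8 thus stood near 1 FPKM or below, far under the fast chains. Myh7 exceeded 1 FPKM in 71 libraries and Myh8 in 56, and on the deposited scale Myh7 was the higher of the pair in 105. Together the chains took a mean of 4.37% (KO on TRF) to 6.13% (old mice on TRF) of each group's fragments.

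The spread within a group was wide beside the steps between groups that are neighbours in order of level. The places of Br-RE and RE-RE mice in the order hold only on the deposited scale, since their values were centred apart. Group means of Myh4 on the log2 scale ran from 13.09 in KO mice of 10 weeks to 12.35 in KO mice on TRF. For Myh1 the highest mean was 10.98, in WT mice on TRF, and the lowest 9.85, in KO mice of 10 weeks. Myh2 was highest in KO mice of 26 weeks, at 8.44, and lowest in KO mice of 10 weeks, at 6.63. Myh7 had its highest mean of -0.07 in RE-RE mice of 26 weeks and its lowest of -2.29 in Br-RE mice of 10 weeks, and Myh8 ranged between -0.19 in KO mice of 10 weeks and -0.96 in KO mice on TRF. The young KO group was thus at an end of the order for Myh4, Myh1, Myh2 and Myh8. When the 15 groups were put in order, no step between neighbours was larger than the larger SD of the pair, for any of the 5 chains. The largest step for Myh1 was 0.36, between Mu-RE mice of 10 weeks and KO mice on TRF, and for Myh4 0.16. With 15 groups in order, steps between neighbours are small, so they do not show how far a given pair of groups lies apart. At 10 weeks Myh1 averaged 10.89 (SD 0.24) in WT and 9.85 (SD 0.39) in KO mice.

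**Figure D1:**
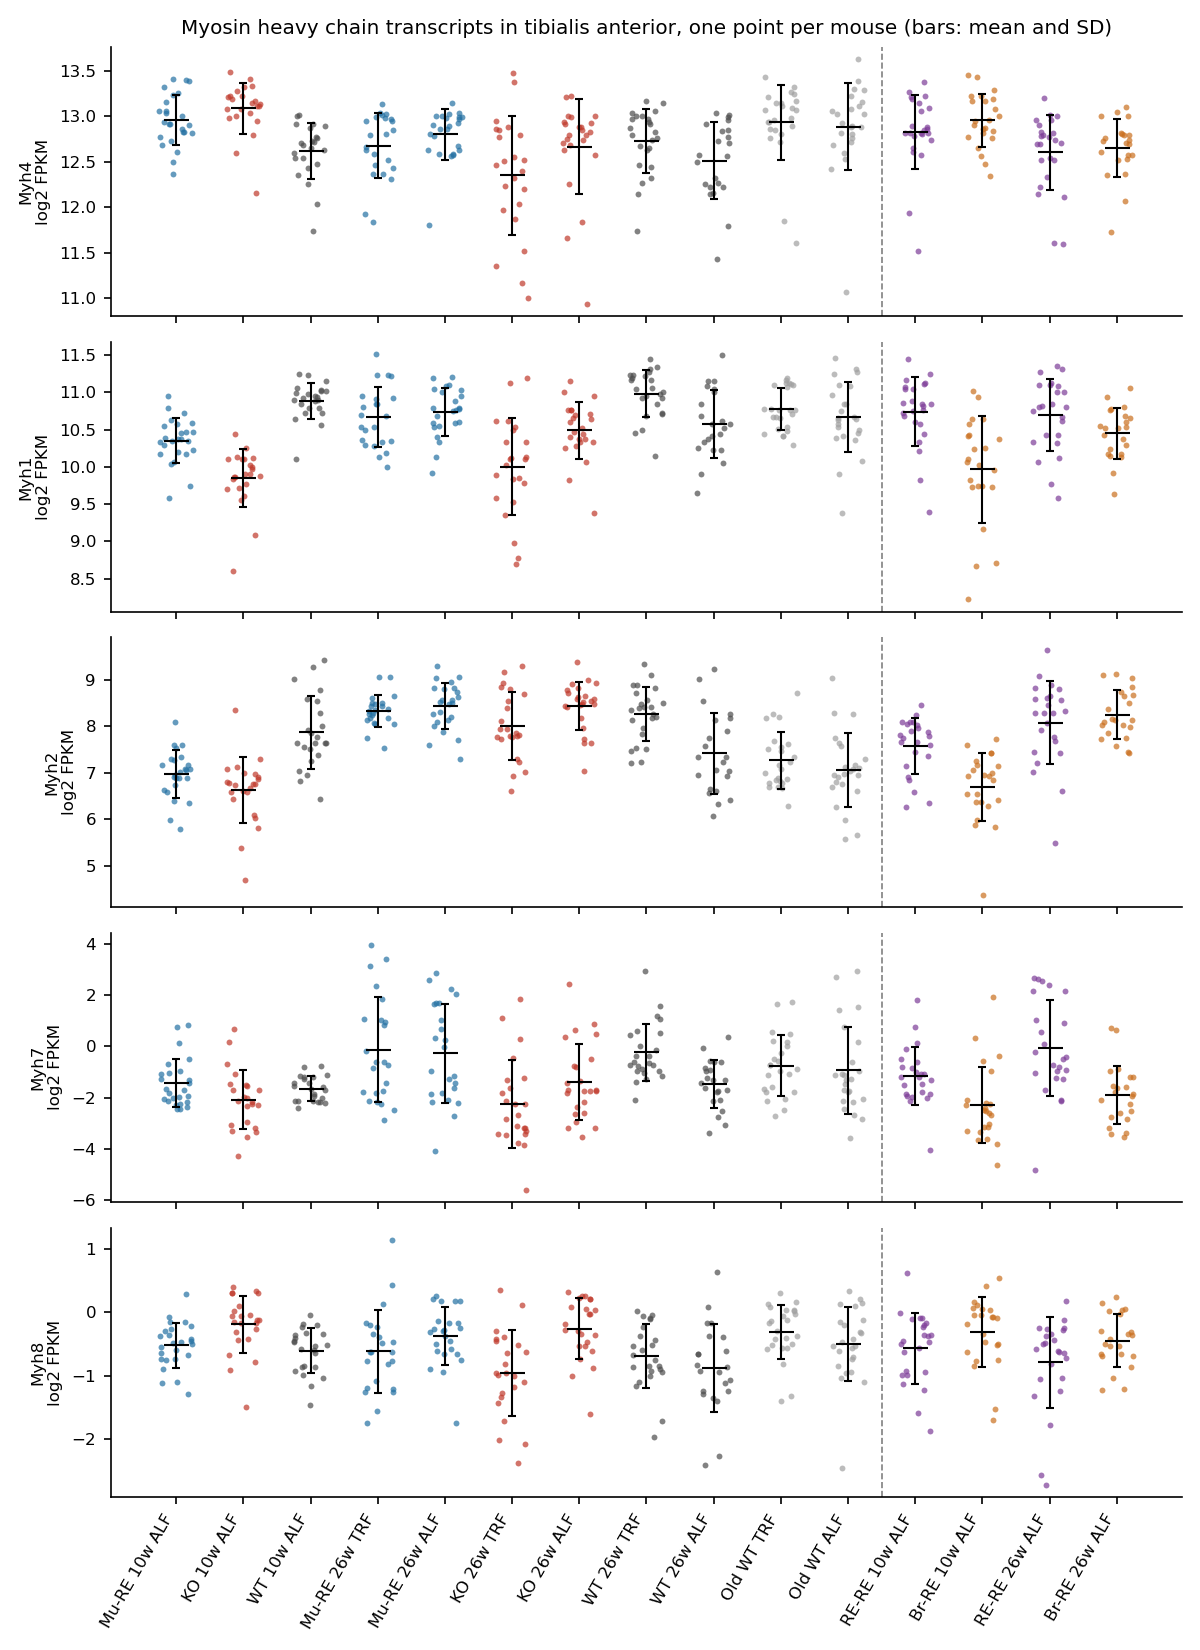
Level of each chain in every library (points, log2 FPKM) by group, with the group mean and SD as a bar, and the groups whose values were centred apart to the right of the dashed line. Myh4 lies highest throughout, Myh7 and Myh8 lie near or below 0, and Myh1 and Myh2 are lowest in the young KO mice.

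As a share of the FPKM of the 5 chains, Myh4 made up 74.2% ± 3.90 in WT mice on TRF (SD, n = 24) to 89.0% ± 3.81 in KO mice of 10 weeks (SD, n = 23). Myh1 made up most of the rest, at 22.4% in WT mice of 10 weeks as its highest group mean and 9.80% in KO mice of 10 weeks as its lowest. Myh2 stayed between 1.18% in KO mice of 10 weeks and 4.46% in KO mice of 26 weeks. In single libraries the share of Myh4 was 74.7% to 95.4% (median 89.3%) in KO, 70.1% to 92.9% (median 85.2%) in Mu-RE and 65.4% to 83.4% (median 74.6%) in WT mice of 10 weeks. At 26 weeks the mean share of Myh4 was 77.9% in KO, 77.3% in Mu-RE and 76.6% in WT mice. RNA of a whole muscle was measured, so fewer fibres of a type and less RNA per fibre cannot be told apart.

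**Figure D2:**
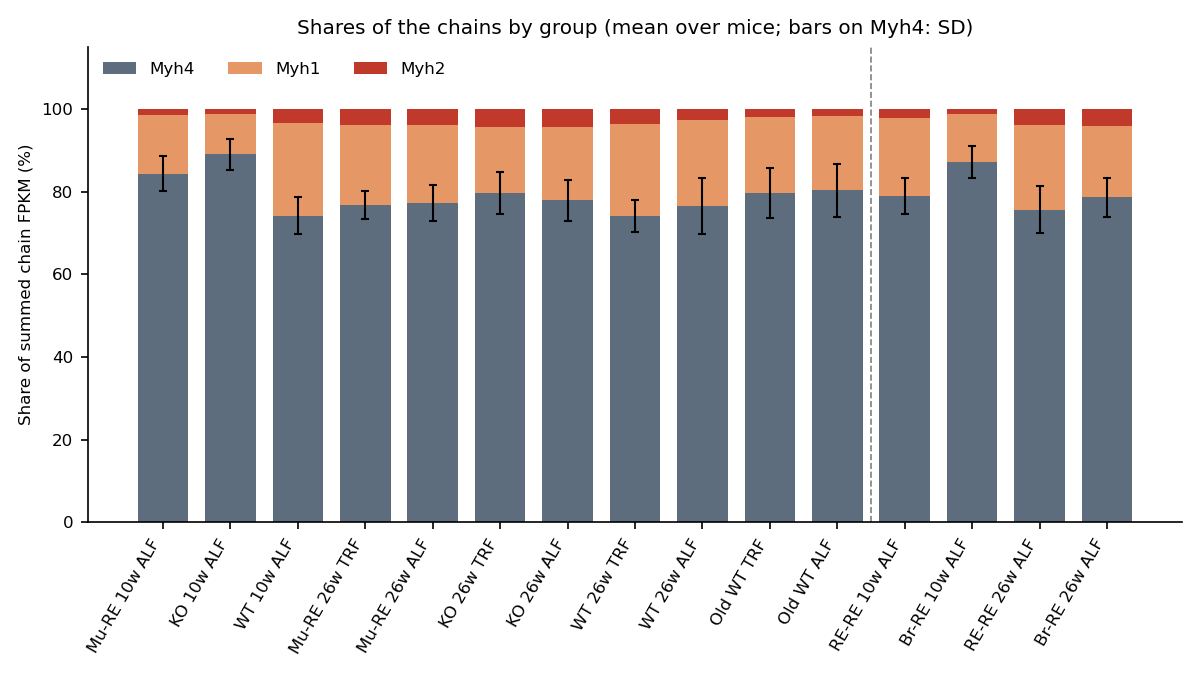
Mean share of Myh4, Myh1 and Myh2 in the summed FPKM of the 5 chains by group (stacked bars, percent, with the SD of the Myh4 share; Myh7 and Myh8 are not drawn), and the groups centred apart to the right of the dashed line. The share of Myh4 is highest in the KO mice of 10 weeks, at 89.0%, and those of Myh1 and Myh2 are lowest there.

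At 10 weeks, KO muscle held more of the type 2B chain and less of the type 2X and 2A chains than WT muscle. Myh1 had 389 FPKM in the lowest, 956 in the median and 1393 in the highest KO library, against 1103, 1944 and 2428 FPKM in WT libraries. All 23 KO libraries lay below the WT median and 18 of them below the lowest WT library, and the KO mean was the lower at 6 of 6 times. The difference was -1.04 on the log2 scale (SE 0.097, limma adjusted p = 5.84e-12). Myh2 had 25.9, 108 and 329 FPKM in the lowest, median and highest KO library, against 87.1, 201 and 692 FPKM in WT libraries. Of the KO libraries, 22 of 23 lay below the WT median, but only 6 fell below the lowest WT library. Myh2 differed by -1.25 (SE 0.22, limma adjusted p = 9.52e-06). Myh4 went the other way, with 4566, 8998 and 11480 FPKM in KO libraries and 3421, 6592 and 8327 FPKM in WT libraries. Above the WT median lay 21 of 23 KO libraries, and 17 lay above the highest WT library. The difference of Myh4 was 0.48 (SE 0.085, limma adjusted p = 1.19e-05), and it was positive at 6 of 6 times.

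Of the 3 members that passed the filter on low values all 3 were called between KO and WT at 10 weeks, where 41.8% of 9862 genes tested were called in either direction. Each of these calls was kept under all 22 alternative settings. The perinatal chain Myh8, tested among all 14413 genes, of which 36.8% were called, was higher in KO mice as well, by 0.43 (limma adjusted p = 0.00226). Its level was 0.343 to 1.31 FPKM (median 0.914) in KO and 0.351 to 0.964 FPKM (median 0.683) in WT libraries. That call was not kept in females alone or without the animals numbered 2. Such a number is the animal's order, by replicate number, within its group and time. Leaving out a number drops that animal from each time of each group. Slow Myh7 had a median of 0.216 FPKM in KO and 0.309 FPKM in WT mice, and its difference of -0.45 missed the threshold (limma adjusted p = 0.18).

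Of 11 tested partners of fast fibres, 7 were higher and 1 was lower in KO mice at 10 weeks, with a median of 0.30, against a median of -0.00 and 41.8% called over all genes tested. Among the most abundant of them, Tnnt3 (fast troponin T) differed by 0.21, Atp2a1 (the calcium pump of fast fibres) by 0.30 and Pvalb (the calcium buffer parvalbumin) by 0.50, all past the threshold. The regulatory light chain of fast myosin, Mylpf, was 0.73 higher (limma adjusted p = 7.57e-07), while the essential light chain Myl1 was at 0.03 (adjusted p = 0.747). Of 9 tested partners of slow fibres, 1 was higher and 2 were lower, with a median of -0.24, a share called that was below that of all genes. The higher one was Casq2 (the calcium store protein calsequestrin of slow and cardiac muscle), at 1.598 (limma adjusted p = 2.33e-14), which is named here after its value was seen. The most abundant, Mb (the oxygen store myoglobin), was at -0.12 and did not pass, whereas Csrp3 (a Z-disc protein that is induced by load) was 2.32 lower (limma adjusted p = 3.73e-06). Of 4 slow or embryonic light chains, 3 were lower and none was higher. The slow form of myosin-binding protein C, Mybpc1, fell by 0.82, and the fast form, Mybpc2, was 0.57 higher, both past the threshold.

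Of 26 tested genes known to regulate fibre type, 3 were higher and 9 were lower at 10 weeks, with a median of -0.13, a share called close to the 41.8% of all genes. The most abundant are Tbx15, a factor of glycolytic fibres, Myf6, a myogenic factor, and Mef2c, a MEF2 factor. They fell by 0.21, 0.39 and 0.15, each past the threshold. Of 7 tested genes that fold or assemble myosin, 5 were lower and none was higher, with a median of -0.51. Markers of other cells moved in the same comparison. All 4 tested macrophage markers were lower in KO mice, with their summed level (log2 FPKM) at 2.87 to 5.20 in KO and 4.15 to 5.77 in WT mice. Of 6 endothelial and mural markers 5 were higher, at 7.07 to 7.67 in KO and 6.48 to 7.52 in WT mice. Their part in the differences of the chains was not tested.

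At 26 weeks the picture in KO muscle was another: Myh2 was higher than in WT muscle and neither Myh1 nor Myh4 differed past the threshold. Myh2 had 132, 373 and 665 FPKM in the lowest, median and highest KO library, against 67.0, 157 and 606 FPKM in WT libraries. The ranges overlapped, with 23 of 24 KO libraries above the WT median, and the mean was higher at 6 of 6 times. The difference was 1.02 (limma adjusted p = 4.4e-05). Myh1 was at -0.08 (limma adjusted p = 0.618) and Myh4 at 0.16 (adjusted p = 0.38). So 1 of 3 tested members was called, where 46.3% of genes were. In males alone the difference of Myh2 was 1.63 (limma adjusted p = 9.65e-06), and in females alone 0.55 (adjusted p = 0.115), and the difference between the sexes was not tested. Without the libraries that stood apart, Myh4 passed too, at 0.28 (limma adjusted p = 0.0272). Markers of other cells moved here as well. Of 6 tested endothelial and mural markers 5 were higher, with a summed level of 6.57 to 7.86 in KO and 6.46 to 7.42 in WT mice. Of 4 macrophage markers 3 were lower, at 2.72 to 5.06 in KO and 3.85 to 5.39 in WT mice, and of 4 fibroblast markers Dcn and Lum were 1.32 and 1.197 lower. What part they have in the difference of Myh2 was not tested.

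The change of the KO difference with age was itself tested. The difference between KO and WT mice was 2.28 more positive at 26 than at 10 weeks for Myh2 (SE 0.30, limma adjusted p = 2.26e-08) and 0.95 more positive for Myh1 (adjusted p = 7.18e-06). For Myh4 the change of -0.32 did not pass (adjusted p = 0.177). These are 2 of 3 members, where 18.8% of genes were called.

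Within the KO genotype, the older mice had far more of the type 2A chain. All 24 KO mice of 26 weeks lay above the median for Myh2 of KO mice of 10 weeks, and 18 lay above the highest of them. Myh2 differed by 1.83 (limma adjusted p = 2.31e-10), Myh1 by 0.64 (adjusted p = 5.19e-05) and Myh4 by -0.42 (adjusted p = 0.00985), so that all 3 tested members were called, against 25.3% of genes. The call of Myh4 was kept in 16 of 22 alternatives. It was lost in either sex alone, without ZT 0, ZT 12 or ZT 20, and without the animals numbered 3, at -0.28 (adjusted p = 0.0758). Slow-fibre genes were higher with age in KO mice: of 9 tested partners 6 were higher and none was lower, with a median of 0.70. Among them Mb was 1.06 higher, Ankrd2 (a stretch-responsive protein) 1.27 higher and Csrp3 1.48 higher, and Myl2, the slow regulatory light chain, was 2.50 higher (limma adjusted p = 3e-08). Of 11 fast-fibre partners 7 were lower and none was higher, Pvalb by -0.55 and Atp2a1 by -0.33. Of 4 tested fibroblast markers 3 were lower as well, with a summed level of 4.65 to 6.92 at 26 weeks and 5.73 to 8.10 at 10 weeks, and their part in the result was not tested.

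Over the same step in age in WT mice, Myh1 was the member called. It had a median of 1495 FPKM at 26 weeks and 1944 FPKM at 10 weeks and differed by -0.31 (limma adjusted p = 0.0235), Myh2 by -0.45 (adjusted p = 0.125) and Myh4 by -0.10, so 1 of 3 members passed, against 37.0% of genes. The call of Myh1 was kept in 13 of 22 alternatives and lost, at -0.10 (adjusted p = 0.586), once the length slope of each library, described below, was in the model. In this comparison 5 of 6 endothelial and mural markers, 3 of 3 smooth muscle and 3 of 4 fibroblast markers were lower and 5 of 5 red blood cell markers were higher, with a part in the result that was not tested. In Mu-RE mice Myh2 was higher at 26 weeks, with 158, 365 and 627 FPKM in the lowest, median and highest library, against 55.6, 129 and 274 FPKM at 10 weeks. Again 24 of 24 older mice lay above the median of the younger, and 18 above the highest. The difference was 1.45 (limma adjusted p = 1.29e-10), and Myh1 was 0.38 higher (adjusted p = 0.000481), where 32.4% of genes were called. All 4 tested fibroblast markers were lower there, with a summed level of 5.24 to 7.03 at 26 weeks and 5.67 to 8.13 at 10 weeks, as were all 4 macrophage markers, at 2.94 to 5.25 and 3.42 to 5.14 in the same order, and their part was not tested.

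**Figure D3:**
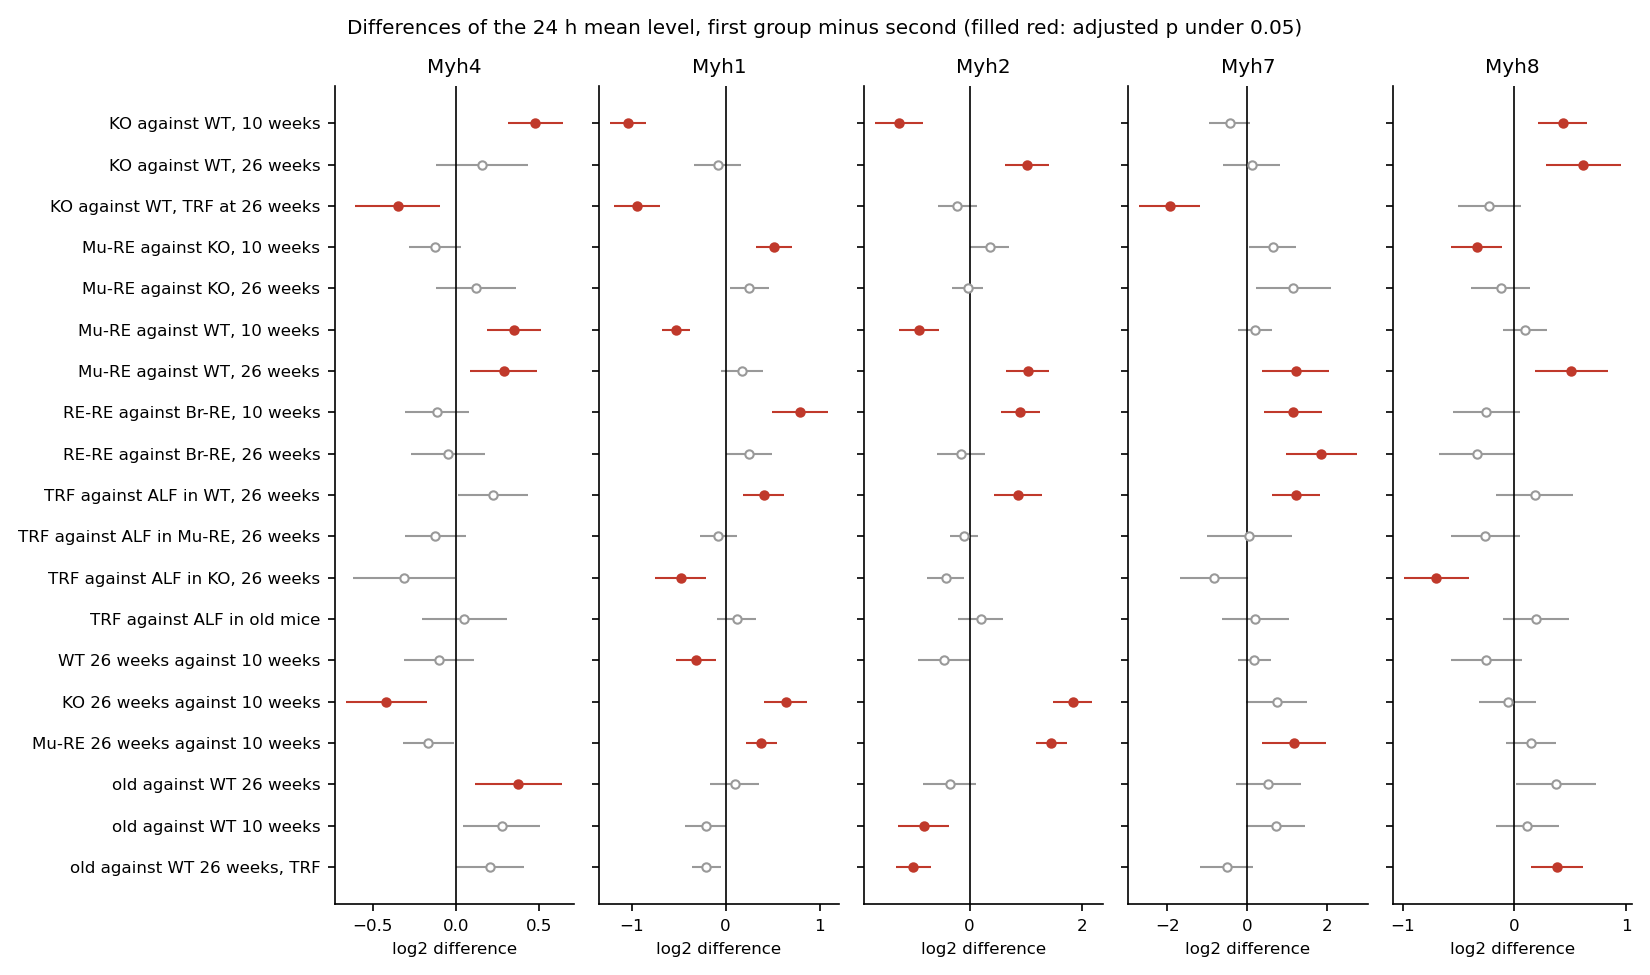
Difference in 24 h mean level of each chain in 19 comparisons (log2 scale, points with 95% intervals; filled points passed the limma threshold). For Myh2 the KO to WT difference lies below 0 at 10 weeks and above 0 at 26 weeks, and for Myh1 it lies below 0 at 10 weeks and near 0 at 26 weeks on ALF.

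Bmal1 switched back on in muscle fibres went with levels of Myh1 between those of KO and WT mice at 10 weeks. Myh1 had 767, 1323 and 1973 FPKM in the lowest, median and highest Mu-RE library, against 389, 956 and 1393 FPKM in KO libraries. Above the KO median lay 23 of 25 Mu-RE libraries, and 10 lay above the highest KO library. The difference was 0.51 (limma adjusted p = 5.21e-05). Against WT mice, with 1103, 1944 and 2428 FPKM, Mu-RE mice were still 0.53 lower in Myh1 (limma adjusted p = 1.18e-06). Neither Myh2 at 0.35 (adjusted p = 0.123) nor Myh4 at -0.13 (adjusted p = 0.235) differed past the threshold between Mu-RE and KO mice, so 1 of 3 members was called, against 34.6% of genes. Against WT mice Myh2 was 0.89 lower (adjusted p = 0.000224) and Myh4 0.35 higher (adjusted p = 0.00107), which makes 3 of 3 members, against 26.5% of genes. All 4 tested macrophage markers were lower in Mu-RE than in WT mice, with a summed level of 3.42 to 5.14 in Mu-RE and 4.15 to 5.77 in WT mice. Against KO mice 5 of 6 endothelial and mural markers were lower, at 6.80 to 7.60 in Mu-RE and 7.07 to 7.67 in KO mice, and the part of either in the differences of the chains was not tested. Myh8 was 0.34 lower in Mu-RE than in KO mice (limma adjusted p = 0.0256, among 28.7% of all genes called), a call that only 14 of 21 alternatives kept.

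The partners did not follow Myh1 as one. Mybpc1, the slow form of myosin-binding protein C, was 0.86 higher in Mu-RE than in KO mice of 10 weeks (limma adjusted p = 6.8e-12), and Mylpf was 0.35 lower. Of 9 tested partners of slow fibres 2 were higher and 4 were lower, Ankrd2 by -1.19 and Mb by -0.39, and of 11 partners of fast fibres 3 were higher and 4 were lower. Over all genes tested, 34.6% were called in this comparison.

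No chain differed past the threshold between Mu-RE and KO mice of 26 weeks. Myh1 had a median of 1742 FPKM in Mu-RE and 1446 FPKM in KO mice and differed by 0.25 (limma adjusted p = 0.0576), and none of the 3 tested members was called, where 33.9% of genes were. At an unadjusted p under 0.05, 1 of the 3, Myh1, passed. Myh1 passed with time as a factor in place of the cosine curve, at 0.27 (adjusted p = 0.0319). Against WT mice of that age, Mu-RE mice had 1.03 more Myh2 (limma adjusted p = 0.000128) and 0.29 more Myh4 (adjusted p = 0.0299), or 2 of 3 members, against 30.8% of genes. The call of Myh4 was kept in 11 of 22 alternatives only. It was lost in either sex alone, with a replicate block, without any one of the animal numbers 1 to 4, and without ZT 0, ZT 4, ZT 8 or ZT 16, at 0.12 (adjusted p = 0.446) without the last. Of 4 tested macrophage markers 3 were lower, with a summed level of 2.94 to 5.25 in Mu-RE and 3.85 to 5.39 in WT mice, and of 6 endothelial and mural markers 4 were higher, at 6.60 to 7.45 in Mu-RE and 6.46 to 7.42 in WT mice. Of 5 red blood cell markers 3 were lower, and the part of these cells was not tested. The Myh2 difference was 1.46 in males (adjusted p = 0.000146) and 0.65 in females (adjusted p = 0.119), with the difference between sexes not tested.

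In mice with brain Bmal1, adding it in muscle went with more Myh1 and Myh2 at 10 weeks. Myh1 had 670, 1820 and 2793 FPKM in the lowest, median and highest RE-RE library, against 299, 1073 and 2077 FPKM in Br-RE libraries. Above the Br-RE median were 22 of 24 RE-RE libraries, and 8 exceeded every Br-RE library. The difference was 0.79 (limma adjusted p = 4.3e-05). Myh2 had 77.5, 219 and 352 FPKM in RE-RE libraries and 20.8, 122 and 212 FPKM in Br-RE libraries, with 13 of the RE-RE libraries above the highest Br-RE library, and differed by 0.90 (limma adjusted p = 7.27e-05). Myh4 was at -0.12 (adjusted p = 0.405), so 2 of 3 members were called, against 32.2% of genes. Mybpc1 was 1.02 higher (limma adjusted p = 6.53e-12) and Mylpf 0.60 lower. All 3 tested smooth muscle markers were higher, with a summed level of 5.29 to 6.35 in RE-RE and 4.33 to 6.08 in Br-RE mice, and their part was not tested. At 26 weeks none of the 3 members was called between RE-RE and Br-RE mice, where 35.3% of genes were, and Myh1 was at 0.25 (adjusted p = 0.116). In that comparison Myh1 passed without the libraries that stood apart, at 0.30 (adjusted p = 0.042). Whether muscle Bmal1 acted differently with and without brain Bmal1 was tested as an interaction, and no member was called at either age. That test called 0.0203% of genes at 10 weeks and 0.0% at 26 weeks, with 984 and 537 genes at an unadjusted p under 0.05.

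Restricted feeding went with more Myh2 and Myh1 in WT mice and with less Myh1 in KO mice. In WT mice Myh2 had 148, 332 and 647 FPKM in the lowest, median and highest TRF library, against 67.0, 157 and 606 FPKM on ALF, and 22 of 24 TRF libraries were above the ALF median. The difference was 0.86 (limma adjusted p = 0.00206). Myh1 had 1139, 2085 and 2804 FPKM on TRF and 801, 1495 and 2891 FPKM on ALF in WT mice, a difference of 0.41 (limma adjusted p = 0.00364). With Myh4 at 0.22 (adjusted p = 0.0907), 2 of 3 members were called, against 41.0% of genes. By sex, Myh2 rose by 1.58 in males (limma adjusted p = 3.68e-05) and was at 0.15 in females (adjusted p = 0.773), with no test between them. Myh1 did not pass in females alone or without ZT 0, at 0.36 (adjusted p = 0.0589). Of the 3 tested smooth muscle markers all were higher on TRF in WT mice, with a summed level of 4.75 to 6.21 on TRF and 4.20 to 6.21 on ALF, as were 4 of 6 endothelial and mural markers, at 6.64 to 7.42 on TRF and 6.46 to 7.42 on ALF, and their part in the result was not tested.

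In KO mice Myh1 had 417, 1094 and 2356 FPKM in the lowest, median and highest TRF library, against 664, 1446 and 2269 FPKM on ALF. The ranges overlapped almost fully. The difference was -0.48 (limma adjusted p = 0.0204), which makes 1 of 3 members, against 14.2% of genes. The call was kept in 13 of 22 alternatives. It did not pass with the length slope in the model, at -0.30 (adjusted p = 0.0777), nor without any one of ZT 0, ZT 4, ZT 8 or ZT 16. Of 6 endothelial and mural markers 3 were lower on TRF in KO mice, with a part that was not tested. In Mu-RE mice none of the 3 members was called, against 16.9% of genes, and in old mice none, where 14 genes (0.142%) were called at all. At an unadjusted p under 0.05 no member passed in either group. The feeding difference was then compared between genotypes. It was more negative in KO than in WT mice for Myh2, by -1.28 (limma adjusted p = 0.000941), for Myh1, by -0.88 (adjusted p = 0.000553), and for Myh4, by -0.52 (adjusted p = 0.037), or 3 of 3 members, against 27.5% of genes. The call of Myh4 was kept in 13 of 22 alternatives, and that of Myh2 was lost in females alone, at -0.56 (adjusted p = 0.337). With the length slope in the model Myh4 no longer passed, at -0.22 (adjusted p = 0.472). The slope averaged -0.292 on TRF and -0.25 on ALF in KO mice, and -0.232 on TRF and -0.28 on ALF in WT mice, so that it was lower on TRF in KO mice and higher on TRF in WT mice. Between old mice and WT mice of 26 weeks no member was called for a difference in the feeding response, where 2.1% of genes were, and at an unadjusted p under 0.05 Myh2 passed, at -0.65.

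Set against WT mice on the same schedule, KO mice on TRF had less Myh1, with 417, 1094 and 2356 FPKM, against 1139, 2085 and 2804 FPKM. Of the KO libraries, 21 of 23 lay below the WT median and 15 below the lowest WT library. The difference was -0.94 (limma adjusted p = 1.65e-08). Myh4 was 0.35 lower (adjusted p = 0.0217) and Myh2 was at -0.22 (adjusted p = 0.312), so 2 of 3 members were called, against 51.8% of genes. All 3 tested smooth muscle markers were lower, with a summed level of 4.32 to 5.95 in KO and 4.75 to 6.21 in WT mice, as were 3 of 4 macrophage markers, at 2.33 to 4.84 in KO and 3.93 to 5.18 in WT mice, and their part was not tested. The call of Myh4 was kept in 13 of 22 alternatives only. It was lost, among others, without the libraries that stood apart, at -0.29 (adjusted p = 0.077), and without any one of ZT 0, ZT 4, ZT 12 or ZT 16.

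Old mice had more Myh4 than WT mice of 26 weeks and less Myh2 than WT mice of 10 weeks, and the other value of each lay on the same side of 0 without passing. Myh4 had 2156, 7708 and 12640 FPKM in the lowest, median and highest old library, against 2757, 6072 and 8413 FPKM in WT mice of 26 weeks, a difference of 0.38 (limma adjusted p = 0.0342). It was the 1 member of 3 called, against 24.2% of genes, and was kept in 11 of 22 alternatives, being lost in either sex alone, without any one of ZT 4, ZT 8, ZT 16 or ZT 20, and with the length slope in the model, at 0.33 (adjusted p = 0.0574). Myh2 was at -0.35 there (adjusted p = 0.285). Against WT mice of 10 weeks Myh4 was at 0.27 (adjusted p = 0.0592). Myh2 had 47.7, 129 and 527 FPKM in old mice, against 87.1, 201 and 692 FPKM in WT mice of 10 weeks, and was 0.82 lower (limma adjusted p = 0.00344), the 1 member called, against 41.5% of genes. That call was lost in males alone and without the animals numbered 2. On TRF, Myh2 had 78.0, 140 and 425 FPKM in old mice and 148, 332 and 647 FPKM in WT mice of 26 weeks. There 23 of 24 old libraries lay below the WT median and 13 below the lowest WT library. The difference was -1.002 (limma adjusted p = 1.11e-05), the 1 of 3 members called, against 9.84% of genes. Of 9 tested partners of slow fibres, 3 were lower and none was higher in old mice than at 26 weeks on ALF, with a median of -0.02, where 24.2% of all genes were called. Among them Csrp3 was at -1.61 and Ankrd2 at -1.02, both past the threshold, and Mb at -0.17, which did not pass.

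Markers of other cells moved with age as well. All 4 tested fibroblast markers were lower in old mice in each of these 3 comparisons. Their summed level was 4.14 to 7.64 in old mice on ALF, against 5.86 to 7.74 in WT mice of 26 weeks and 6.28 to 8.37 in WT mice of 10 weeks, and 4.67 to 6.98 in old mice on TRF, against 6.298 to 7.55 in WT mice of 26 weeks on TRF. Dcn, the most abundant of these markers, was at -0.82 against 26 weeks and at -0.71 against 10 weeks. Col1a1 (a collagen of fibroblasts) was at -2.47 and -3.84 in the same order, and all of these values passed the threshold. Against 10 weeks 5 of 6 endothelial and mural markers and 3 of 4 macrophage markers were also lower, and 4 of 5 red blood cell markers were higher, at 6.62 to 10.4 in old and 4.28 to 7.803 in WT mice. The part of these cells in the differences of Myh4 and Myh2 was not tested.

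The slow chain Myh7 was scarce and uneven. Its median was under 1 FPKM in every group, and 18 of 352 libraries exceeded 4 FPKM, none of 118 at 10 weeks, 16 of 186 at 26 weeks and 2 of 48 in old mice. The highest library, a Mu-RE mouse on TRF at ZT 0, had 15.5 FPKM. In that library the slow troponins Tnnt1 and Tnni1 were 2.28 and 2.51 above their group means on the log2 scale, and the slow light chain Myl2 1.89 above. A KO mouse of 26 weeks with 5.32 FPKM of Myh7 had 1.83 more Tnnt1, 1.51 more Tnni1 and 0.585 more Myl2 than its group. Not every such library was alike in this. A RE-RE mouse of 26 weeks with 6.12 FPKM of Myh7 was at 0.847 for Tnnt1, 0.738 for Tnni1 and -0.0801 for Myl2. Myh7 fell below the filter on low values and was tested among all genes. KO mice on TRF had 0.0108 to 3.58 FPKM (median 0.147), against 0.227 to 7.71 FPKM (median 0.639) in WT mice on TRF, and 15 of 23 KO libraries lay below the lowest WT library. The difference was -1.94 (limma adjusted p = 6.44e-05, where 45.3% of all genes were called). It remained called in all 21 alternatives, with values from -2.27 to -0.54. These are not all on one scale, since the alternatives include 1 FPKM as the pseudocount, which shrinks differences of a gene this low.

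Myh7 was also higher with muscle Bmal1 in some comparisons and not in others. Between KO and WT mice of 26 weeks on ALF it was not called. Its mean log2 levels there were -1.38 (SD 1.48) in KO and -1.46 (SD 0.94) in WT mice. RE-RE mice had 0.0256 to 6.33 FPKM (median 0.713) at 26 weeks and Br-RE mice 0.0778 to 1.62 FPKM (median 0.262), and the ranges overlapped. The difference was 1.84 (limma adjusted p = 0.00133, among 30.8% of all genes), and at 10 weeks it was 1.14 (adjusted p = 0.0162, among 26.7%). The call at 26 weeks was lost in males alone, at 0.38 (adjusted p = 0.66), and without the animals numbered 2, at 1.205 (adjusted p = 0.0741). That at 10 weeks was kept in 13 of 21 alternatives. It was lost in either sex alone, without ZT 4, ZT 12 or ZT 16, without the animals numbered 3 or 4, and at 1 FPKM as the pseudocount, at 0.23 (adjusted p = 0.201). In Mu-RE against KO mice Myh7 did not pass, at 0.64 (adjusted p = 0.112) at 10 weeks and 1.14 (adjusted p = 0.0671, where 29.3% of all genes passed) at 26 weeks. Against WT mice of 26 weeks, which have Bmal1 in muscle too, Mu-RE mice had 1.203 more Myh7 (limma adjusted p = 0.0356). Between 26 and 10 weeks, Mu-RE mice differed by 1.166 (adjusted p = 0.0285). Of the 9862 genes that passed the filter, to which Myh7 does not belong, 30.8% and 32.4% were called in these comparisons. The calls were kept in 11 and 14 of 21 alternatives, and both were lost in males alone. On TRF, WT mice had 1.22 more Myh7 than on ALF (limma adjusted p = 0.00225, among 32.9% of all genes), and that feeding difference was more negative in KO than in WT mice, by -2.04 (adjusted p = 0.00508, among 19.7%). The WT feeding call was lost without ZT 16, without the animals numbered 3 and in males alone, at 1.02 (adjusted p = 0.069) in males. The difference between genotypes was kept in 16 of 21 alternatives, and lost in either sex alone, without ZT 16 and without the animals numbered 1 or 3. With Myh7 near 0.2 FPKM in many libraries, a value rests on far fewer read pairs than one of the fast chains, and 5.83% of its stretches of 150 bases are shared with Myh6.

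The perinatal chain Myh8 varied with Myh4 at a far lower level. For each 10000 FPKM of Myh4 there were 0.457 FPKM of Myh8 in the lowest, 0.999 in the median and 3.14 in the highest library. Deviations from the mean of group and time were correlated between Myh8 and Myh4 over 352 libraries (Pearson r = 0.704, Spearman rho = 0.631, r = 0.683 without the 2 farthest libraries, permutation p = 1.7e-05 for r after adjustment over 15 pairs). Of the stretches of 150 bases of Myh4, 15 of 5671 occur unchanged in Myh8, and whether reads of Myh4 were counted for Myh8 was not tested. Apart from the difference at 10 weeks, Myh8 was 0.62 higher in KO than in WT mice of 26 weeks (limma adjusted p = 0.0034, among 42.0% of all genes) and 0.70 lower in KO mice on TRF than on ALF (adjusted p = 0.00273, among 10.0%). The first was lost without ZT 16 and in females alone, and the second without ZT 16, without the animals numbered 1 and in males alone. Mu-RE mice of 26 weeks had 0.51 more Myh8 than WT mice (limma adjusted p = 0.0201). Old mice on TRF had 0.38 more than WT mice of 26 weeks on TRF (adjusted p = 0.0322). Of the 9862 genes that passed the filter, to which Myh8 does not belong, 30.8% and 9.84% were called there. These calls were kept in 13 and 11 of 21 alternatives. The feeding difference of Myh8 was also more negative in KO than in WT mice, at -0.87 (limma adjusted p = 0.00555), but with the length slope in the model it was -0.57 (adjusted p = 0.136), and it was kept in 16 of 21 alternatives.

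Of the other sarcomeric heavy chains, Myh3 (the embryonic chain), Myh13 (the chain of eye muscles), Myh6 (the cardiac alpha chain, also made in muscle spindles) and Myh7b were measured, each below 6 FPKM in every library and below the filter. At 10 weeks all 4 were lower in KO than in WT mice, where 36.8% of all 14413 genes were called in either direction. Myh3 had 0.0459 to 2.01 FPKM (median 0.132) in KO and 0.196 to 1.67 FPKM (median 0.539) in WT mice, and fell by 1.597 (limma adjusted p = 4.83e-07). Myh6, Myh13 and Myh7b fell by 0.64, 0.71 and 0.49. Myh3 was 1.54 higher in Mu-RE than in KO mice (adjusted p = 2.9e-07) and 2.11 higher in RE-RE than in Br-RE mice of 10 weeks (adjusted p = 1.48e-09). At 26 weeks Myh3 was at -0.01 between KO and WT mice (adjusted p = 0.991), while Myh13 was still 0.55 lower (adjusted p = 0.00904).

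Transcripts of the opposite strand lie within the cluster. Myhas runs back over the end of Myh1 at chr11:67211256-67237573, and its start in RefSeq lies 531 bases from the RefSeq start of Myh4. It had 37.4 to 56.8 FPKM (median 47.0) in KO, 32.4 to 50.2 FPKM (median 41.2) in Mu-RE and 20.5 to 43.0 FPKM (median 31.4) in WT mice of 10 weeks. It was 0.61 higher in KO than in WT mice (limma adjusted p = 3.84e-12) and 0.20 lower in Mu-RE than in KO mice (adjusted p = 0.00116). So it moved in the direction of Myh4 and against Myh1 between KO and WT mice of 10 weeks. No source used here states the strand setting of the counting, so reads of Myhas and Myh1 where they overlap cannot be told apart. The transcript 9430073C21Rik overlaps the end of Myh2 and was 0.92 lower in KO than in WT mice (limma adjusted p = 0.000843), with the same limit. Upstream of Myh2, 2310065F04Rik was 0.69 lower (adjusted p = 9.72e-07).

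A daily rhythm of the chains was called in few groups. A 24 h curve was called for all 3 tested members in Br-RE mice of 10 weeks, where 29.0% of genes were rhythmic, and for Myh1 and Myh4 in WT mice on TRF, where 37.8% were. In the other 13 groups no member was called, and between 0.0% and 6.97% of genes were. Myh1 in Br-RE mice averaged 8.84 on the log2 scale at ZT 4 and 10.42 at ZT 16, with an amplitude of 0.63 (SE 0.16, limma adjusted p = 0.0196). All 3 rhythms of the Br-RE mice were lost with the length slope in the model, Myh1 with an amplitude of 0.10 (adjusted p = 0.85), and only 1.74% of genes were then rhythmic in this group. In WT mice on TRF, Myh1 peaked at ZT 3.4 with an amplitude of 0.25 (limma adjusted p = 0.0307, and 0.0449 with the covariate), and Myh4 at ZT 2.98 with 0.28 (adjusted p = 0.0389, and 0.0653 with the covariate). The rhythm of no member differed past the threshold between KO and WT mice, where 0.517% of genes did at 10 weeks and 0.172% at 26 weeks.

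**Figure D4:**
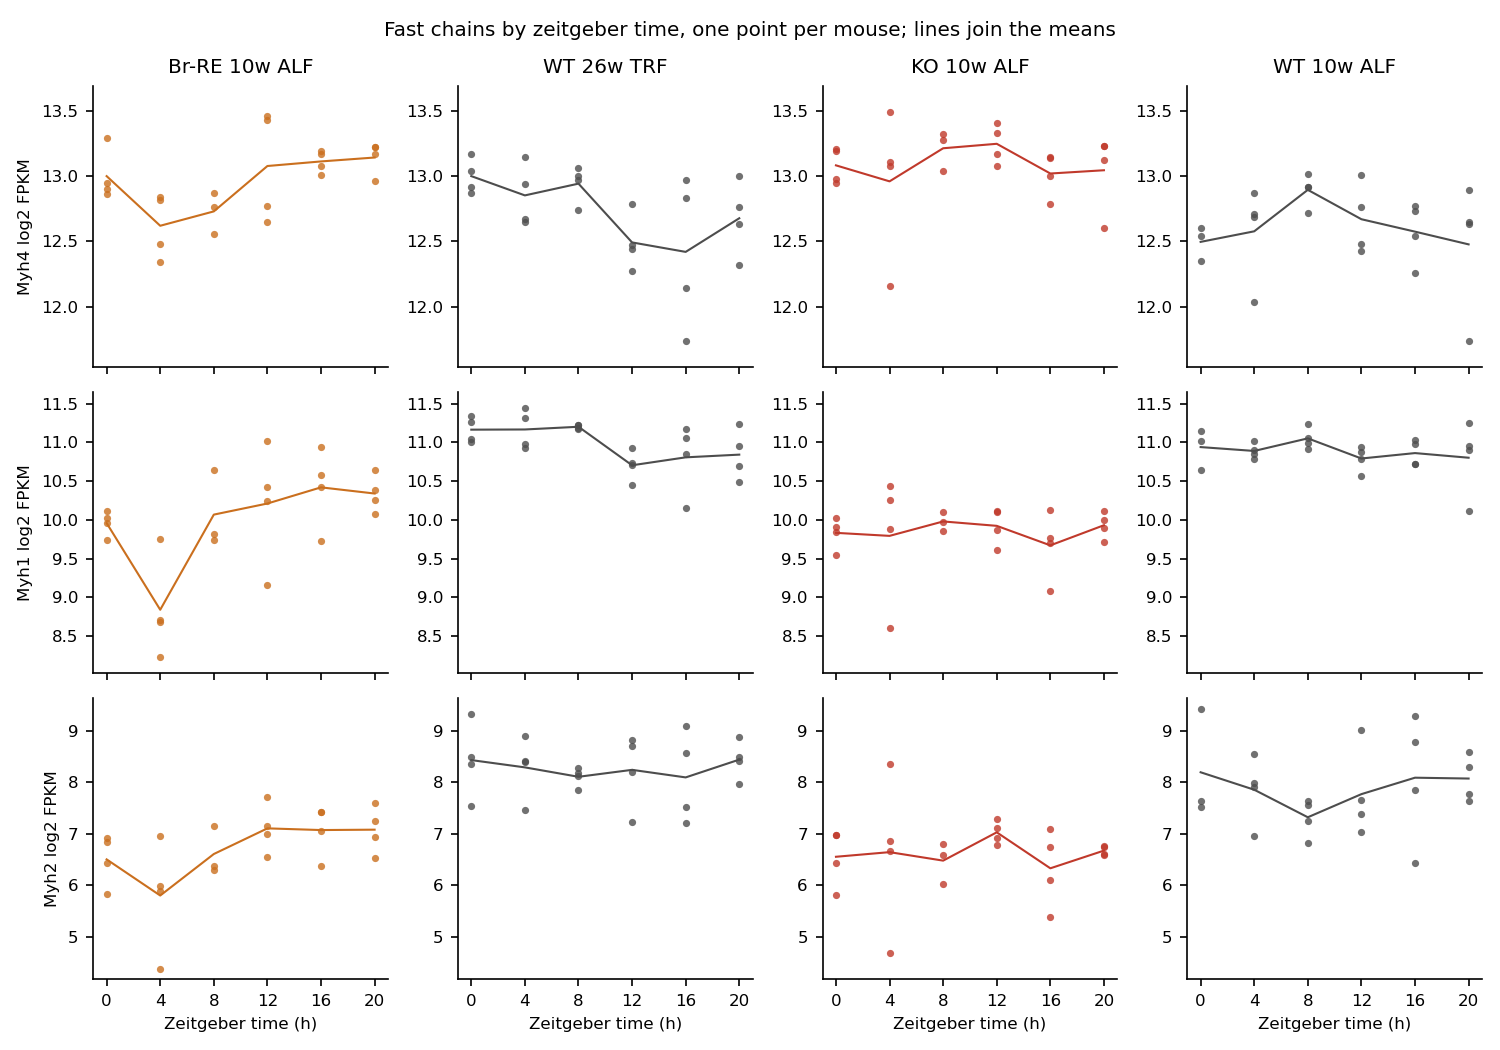
Level of Myh4, Myh1 and Myh2 (log2 FPKM) by zeitgeber time (h) in Br-RE mice of 10 weeks, WT mice of 26 weeks on TRF, and KO and WT mice of 10 weeks, 1 point per mouse, with lines joining the means of 3 to 5 animals. Myh1 of the Br-RE mice is lowest at ZT 4, with a mean of 8.84, and at 10 weeks the KO line lies below the WT line for Myh1 and above it for Myh4 at all 6 times.

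The length slope of a library is the slope of log2 level on log2 exon length over its genes, and a lower slope means that long transcripts read lower against short ones. Its deviations from group and time were correlated with those of the chains, which are long transcripts, at r = 0.461 for Myh1, 0.448 for Myh4, 0.403 for Myh8, 0.299 for Myh2 and 0.129 for Myh7 (n = 352, rho 0.409, 0.368, 0.392, 0.295 and 0.106, adjusted permutation p from 1.7e-05 for the first 4 to 0.048 for Myh7). Without the 2 farthest libraries r was 0.449, 0.418, 0.388, 0.271 and 0.105 in the same order. At 10 weeks the mean slope was -0.231 in KO and -0.218 in WT mice, and the calls of the fast chains there were kept with the slope as a covariate.

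Among mice of one group and time, Myh1 and Myh2 varied together (r = 0.556, rho = 0.522, r = 0.529 without the 2 farthest libraries, n = 352, adjusted permutation p = 1.7e-05). Myh1 also varied with Myh4 (r = 0.391, rho = 0.264, r = 0.393 without the 2 farthest libraries, adjusted permutation p = 1.7e-05), while Myh2 and Myh4 did not show a relation (r = -0.00724, rho = -0.0293, adjusted permutation p = 0.92). The relation of all 3 with the length slope, given above, was not removed from these values.

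**Figure D5:**
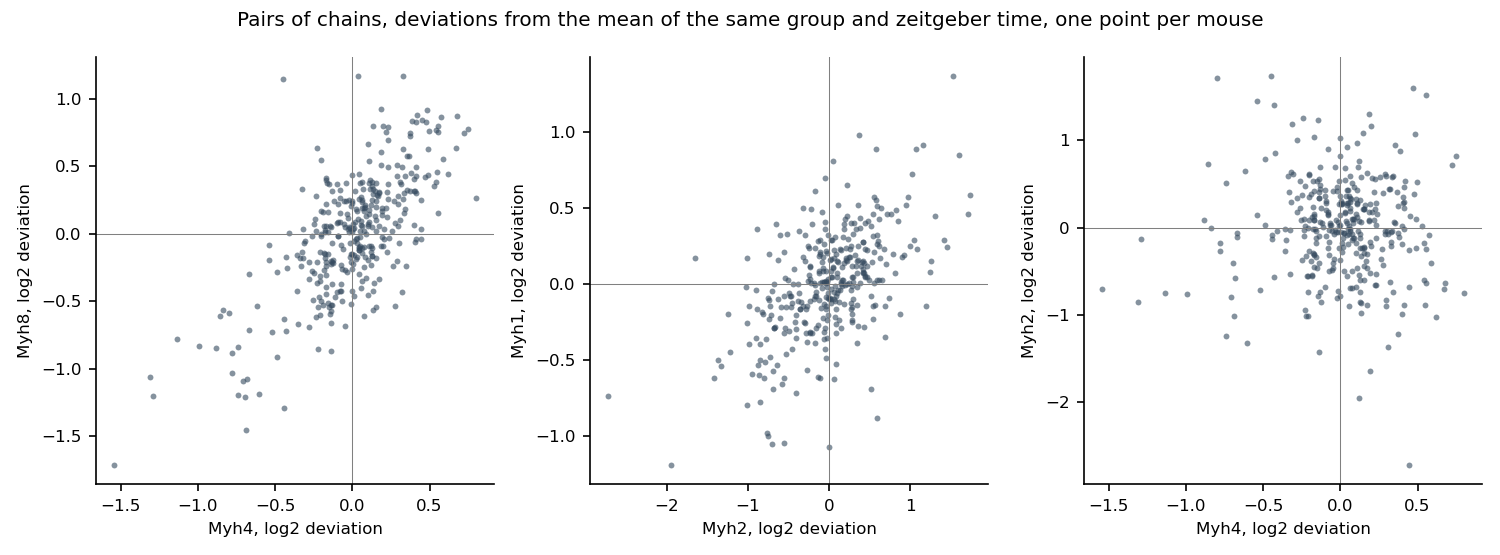
Deviations of single libraries from the mean of their group and time (log2 scale) for pairs of chains, 1 point per library, 352 in all. Myh8 rises with Myh4 (r = 0.704) and Myh1 with Myh2 (r = 0.556), while Myh2 and Myh4 form a round cloud (r = -0.00724).

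Each chain had its own company among the 9862 tested genes. By the correlation of log2 level over the 259 libraries other than Br-RE and RE-RE, Myh4 was most like Pygm (muscle glycogen phosphorylase, r = 0.869), Atp2a1 (r = 0.862) and Mybpc2 (r = 0.827). Myh1 was most like Ppip5k1 (r = 0.778) and Myom1 (an M-band protein, r = 0.768), and Myh2 like Actn2 (an actinin of the Z-disc, r = 0.745), Acss2 (an acetate-activating enzyme, r = 0.739) and Myoz2 (a Z-disc protein of slow fibres). Myh7 was most like the slow troponins Tnnt1 (r = 0.862) and Tnnc1 (r = 0.821), then Tpm3 (slow tropomyosin, r = 0.663). Myh8 was most like Uba1 (r = 0.748) and Myh4 (r = 0.733). By deviations within group and time over 352 libraries, Pygm stayed first for Myh4 (r = 0.887), Tnnt1 for Myh7 (r = 0.805), whereas Got2 (a mitochondrial aminotransferase, r = 0.804) came first for Myh1 and Myom3 (an M-band protein, r = 0.79) for Myh2. These libraries share depth and length effects, so the values are descriptions only.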

How the data were processed

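Whole tibialis anterior muscle of 352 mice was frozen at 6 times and sequenced as 150 bp pairs, per the labels' protocols. Per the submitters' processing notes, the authors used limma 3.44.1, edgeR 3.30.0, HISAT2 2.1.0 and featureCounts 1.6.2 on GRCm38, besides Trim Galore 0.5.0 and FastQC 0.11.8, with no roles given. The deposited values are log2 FPKM, and 0.01 was taken off when FPKM were read back. Their depth could not be recovered, since 24.1% to 27.2% of low values in 15 libraries lay within 0.1 of whole reads, against 20% if spread evenly, so no interval for counting error is given.

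Females and males had equal means in every gene to within 1e-05 inside 259 libraries without brain Cre and inside each set of brain Cre libraries, and the mean of each such set equalled that of its age mates. These equalities are in the deposited values, and no source used here names the step that made them. Sexes were therefore not compared, and sex was kept in the models.

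Linear models of limma 3.58.1 (trend and robust, in R 4.3.3 with the data.table package, version 1.17.8) gave each group compared its level and a 24 h cosine curve, beside a term for sex. The 9862 genes whose log2 values averaged 0 or more were tested two-sided, adjusted by Benjamini-Hochberg, and called at 0.05. Myh7 and Myh8 fell below 0 and were tested in a fit of the whole table, with 14413 genes. Symbols were present for 14339 genes. Rhythm was an F test in each group. The models were tested on simulated data. Correlations used 100000 permutations, the smallest p being 1e-05. Figures and sequences used Python 3.11.15, pandas 2.3.3, numpy 2.4.6, matplotlib 3.10.9 and Biopython 1.88.

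Named were all members, the first genes by correlation and, for the lists described, genes from among the most abundant tested. A list of developmental and denervation genes was tested and is not described. Its most abundant gene, Actc1, was 2.16 higher in KO than in WT mice of 10 weeks (limma adjusted p = 5.06e-11). Casq2 and Lum, Tnnt1 and Tnni1 in single libraries, and the neighbours of the members on the chromosome were added after their values were seen. The members and gene lists were chosen with earlier results of these data known. Nothing in the labels says whether animals of a group shared a litter or cage. Replicate numbers did not pair the animals across groups. Animals left out by number were counted in order of replicate number within their group and time. The alternatives were other filters, sexes, times or animals left out, 1 FPKM as the pseudocount, time as a factor, a replicate block, the length slope as a covariate and fits without 16 libraries that stood apart. The last was chosen after seeing the data.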

Additional observations from a re-analysis of the deposited data

Results flagged for a closer look

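In 7 cases the difference of a chain under one contrast differed between 2 settings by a test of that difference itself (limma). The KO to WT difference was more positive at 26 than at 10 weeks, by 0.95 on the log2 scale for Myh1 (adjusted p = 7.18e-06) and by 2.28 for Myh2 (adjusted p = 2.26e-08). The TRF to ALF difference was more negative in KO than in WT mice for all 5 chains, by -0.88 for Myh1 (adjusted p = 0.000553), by -1.28 for Myh2 (adjusted p = 0.000941), by -0.52 for Myh4 (adjusted p = 0.037), by -2.04 for Myh7 (adjusted p = 0.00508) and by -0.87 for Myh8 (adjusted p = 0.00555). The calls of Myh4, Myh7 and Myh8 were kept in 13 of 22, 16 of 21 and 16 of 21 alternatives. Those of Myh4 and Myh8 were lost, among others, with the length slope in the model, and that of Myh2 in females alone. The age contrast called 18.8% of the 9862 genes tested. The feeding contrast called 27.5% of these, and 19.7% of all 14413 genes. In both contrasts the groups share libraries, the KO and the WT mice of 26 weeks on ALF. All groups held more than 10 animals, so none was searched for a single far animal.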

How the results depend on the processing

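No difference of a member changed sign under any alternative where it was called. Of 45 called differences of single members 15 kept their call under every alternative, among them Myh1, Myh2 and Myh4 between KO and WT mice of 10 weeks. The counts below are of the 3 members tested, beside those of the report, which gives the losses of the calls of Myh7 and Myh8 that it names.

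In females only the count was 0 for KO against WT at 26 weeks, Mu-RE against WT at 26 weeks, TRF in WT mice, WT mice of 26 against 10 weeks, and old against WT mice of 26 weeks on either schedule. It was 1 for RE-RE against Br-RE at both ages and for the feeding difference between KO and WT mice, and 2 for old against WT mice of 10 weeks. In males only it was 0 for TRF in KO mice and for old against WT mice of 26 weeks, 1 for KO against WT mice on TRF, Mu-RE against WT at 26 weeks and Mu-RE mice of 26 against 10 weeks, and 2 for WT mice of 26 against 10 weeks. Groups of one sex hold fewer samples.

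With the length slope as a covariate it was 0 for TRF in KO mice, WT mice of 26 against 10 weeks, and old against WT mice of 26 weeks, 1 for KO against WT mice on TRF, Mu-RE against KO and RE-RE against Br-RE at 26 weeks, and 2 for old against WT mice of 10 weeks. Rhythms then numbered 0 in Br-RE mice of 10 weeks, 1 in WT mice on TRF and 1 in KO mice on TRF. With time as a factor it was 1 for Mu-RE against KO at 26 weeks. Without the libraries that stood apart it was 2 for KO against WT at 26 weeks and for old against WT mice of 10 weeks, and 1 for KO against WT mice on TRF and for RE-RE against Br-RE at 26 weeks. The cause was not tested.

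With a replicate block it was 1 for Mu-RE against KO and against WT at 26 weeks, 2 for TRF in KO mice, and 0 for WT mice of 26 against 10 weeks and for old against WT mice of 26 weeks. Animals with the same replicate number did not deviate together (median r of -0.0536 to 0.163 by comparison), so these numbers do not pair them.

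Leaving out one time or one animal number at a time gave 1 to 2 for KO against WT at 26 weeks and on TRF, Mu-RE against KO at 10 weeks, Mu-RE against WT at 26 weeks, TRF in WT mice, and old against WT mice on TRF. It gave 0 to 1 for Mu-RE against KO and old against WT mice at 26 weeks, 0 to 2 for TRF in KO mice, WT mice of 26 against 10 weeks and old against WT mice of 10 weeks, and rhythms of 0 to 3 in Br-RE mice of 10 weeks and 0 to 2 in WT mice on TRF.

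Low levels limit Myh7 and Myh8, for which far fewer read pairs stand behind a value than for the fast chains.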
